A study of Mus musculus with 192 samples.

Results

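The mature miRNAs mmu-miR-191-5p, mmu-miR-425-5p and mmu-miR-425-3p, which are cut from 2 neighbouring hairpins on mouse chromosome 9, were followed through 190 small RNA libraries of cortex, heart and lungs. The 3 rows were taken by name from the 1960 mature miRNAs of each tissue's table. All 3 passed the filter on low values in every tissue (a normalised read count of at least 10 in at least 4 libraries), as did 482 miRNAs in cortex, 320 in heart and 371 in lungs. The members were selected on their shared origin and on earlier results of these data, namely the lung values of miR-425-3p by dose and time, so lung comparisons over all mice are given below as a description with no test.

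The mice were adult male SKH-1 Elite mice, a hairless strain, and all were given one injection under the skin. Fentanyl citrate, an agonist of the mu opioid receptor, was given at 62 mg/kg (HNLD, the highest non-lethal dose, named LOEL in the sample labels), 110 mg/kg (LD10) or 135 mg/kg (LD50), and sham mice received 200 µL of Ringer's solution. Tissue was taken 40 min (called 0h), 6h, 24h or 7d later from 4 mice for each dose and time, which makes 64 mice in 16 groups, and each replicate is a separate mouse. Cortex of mouse FP91 (sham, 24h) and lungs of mouse FP61 (LD50, 7d) were not analysed here.

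Dose went with the number of the mouse. Mice FP16 to FP58 were 16 HNLD, 15 LD10 and 2 LD50 mice, mice FP59 to FP88 were 10 sham and 14 LD50 mice, and the 7 mice FP91 to FP96 and FPB2 were 6 sham mice and 1 LD10 mouse. All 4 sham mice of 24h were among these last 7. The labels name no batch, and HNLD or LD10 against sham cannot be told apart from a difference between these ranges of numbers. The same holds for LD50 against sham at 24h, since all LD50 mice of 24h were among FP59 to FP88. Comparisons over all times include 24h. The heart table names the FP91 column LD10, whereas its label says sham, and the label was used.

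A miRNA hairpin is trimmed in the nucleus and cut by Dicer into a duplex, of which one arm is kept in an Argonaute protein while the other arm is mostly degraded, so that one arm is usually far more abundant. Bases 2 to 8 of the kept arm, the seed, pair with messenger RNAs and lower their output. miR-191 and miR-425 are known as a co-transcribed pair within Dalrd3, whose human protein takes part in a base modification of transfer RNA. miR-191-5p is expressed in most tissues, and miR-425-5p is known from human cells to lower atrial natriuretic peptide.

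The mature sequences of the members are shown because seed and arm set them apart, 5′ to 3′ from RefSeq (GRCm38.p6), with the seed in capitals.
miR-191-5p: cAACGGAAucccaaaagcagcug
miR-425-5p: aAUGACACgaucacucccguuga
miR-425-3p: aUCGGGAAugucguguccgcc
The 3 seeds differ from each other. Among 1679 mature mouse miRNAs in the RefSeq table, none shared the seed of miR-191-5p or miR-425-3p, and 1 shared that of miR-425-5p, miR-489-3p from chromosome 6.
miR-489-3p: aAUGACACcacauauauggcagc
In NCBIM37 (mm9, the build of the files), matching of the hairpins placed miR-191 at chr9:108470650-108470723 and miR-425 at chr9:108471108-108471192, both on the plus strand with 384 bases between them. The hairpins are shown to place both arms of each, with the mature arms in capitals.
Mir191 hairpin: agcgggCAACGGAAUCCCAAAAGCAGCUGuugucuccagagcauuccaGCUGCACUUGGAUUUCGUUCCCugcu
Mir425 hairpin: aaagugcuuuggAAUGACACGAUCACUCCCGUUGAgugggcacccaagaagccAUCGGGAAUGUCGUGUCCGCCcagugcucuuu
miR-191-5p lies at chr9:108470656-108470678, miR-425-5p at chr9:108471120-108471142 and miR-425-3p at chr9:108471161-108471181. RefSeq (GRCm38.p6) places both hairpins within Dalrd3, whereas in the GENCODE vM1 annotation of NCBIM37 Dalrd3 (chr9:108472223-108475102) starts 1030 bases after the miR-425 hairpin. The miR-191 hairpin overlaps CT010508.1 on the other strand in that annotation.

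Depth ranged from 1775669 to 8381425 reads in cortex, from 215163 to 5355085 in heart and from 196853 to 6540900 in lungs. By their whole profile, 3 cortex libraries (FP24, FP85, FP96), 2 heart libraries (FP38, FP92) and 10 lung libraries (FP30, FP33, FP38 and the last 7 mice) stood apart from the rest. The 4 cortex markers (miR-9-5p, miR-124-3p, miR-128-3p, miR-137-3p) took a median of 10.2% of cortex reads but 0.034% in cortex FP85 and 0.0217% in cortex FP96, where the 5 lung markers (the miR-200 family and miR-141-3p) took 0.813% and 0.638%. The heart library of FP38 held 0.499% heart markers (median of heart libraries 11.1%) and 1.09% lung markers, and the lung library of FP38 held 13.3% heart markers and 0.0827% lung markers (median 0.875%), so that these 4 libraries went against their tissue labels. The lungs of the last 7 mice held 1.73% to 2.08% lung markers.

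miR-191-5p was the most abundant member in every tissue, miR-425-5p followed, and miR-425-3p was the lowest. In cortex (n = 63), the normalised read count of miR-191-5p had a lowest value of 4602.2, a median of 7731.1 and a highest value of 12363.1, that of miR-425-5p 300.3, 429.8 and 730.7, and that of miR-425-3p 7.5, 17.4 and 39.6. In heart (n = 64), the lowest, median and highest values were 3653.7, 5262.0 and 8776.3 for miR-191-5p, 157.0, 214.8 and 374.7 for miR-425-5p, and 3.4, 11.9 and 18.7 for miR-425-3p. In lungs (n = 63), they were 3734.6, 6866.4 and 14061.5 for miR-191-5p, 355.3, 503.1 and 811.1 for miR-425-5p, and 8.3, 22.4 and 353.7 for miR-425-3p. The ranges of the 3 members did not overlap in any tissue. In lungs without the last 7 mice (n = 56), miR-425-3p ended at 39.6, with a median of 21.4. As a share of the library's reads, the median was 0.789% in cortex and 0.691% in lungs for miR-191-5p, against 0.0432% and 0.0508% for miR-425-5p. By median rank among all miRNAs of a library, miR-191-5p stood at 30 in cortex, 27 in heart and 24 in lungs, and miR-425-3p at 381, 267 and 253. The reads of miR-425-3p per library had a median of 80 in cortex, 26 in heart and 89 in lungs, and a lowest count of 20, 1 and 2. Fewer cells with a miRNA and less of it per cell cannot be told apart in whole tissue. miR-489-3p, with the seed of miR-425-5p, had a median of 3.1 in cortex, was listed at 0 in 37 of 64 hearts, and had a median of 68.1 in lungs.

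**Figure D1:**
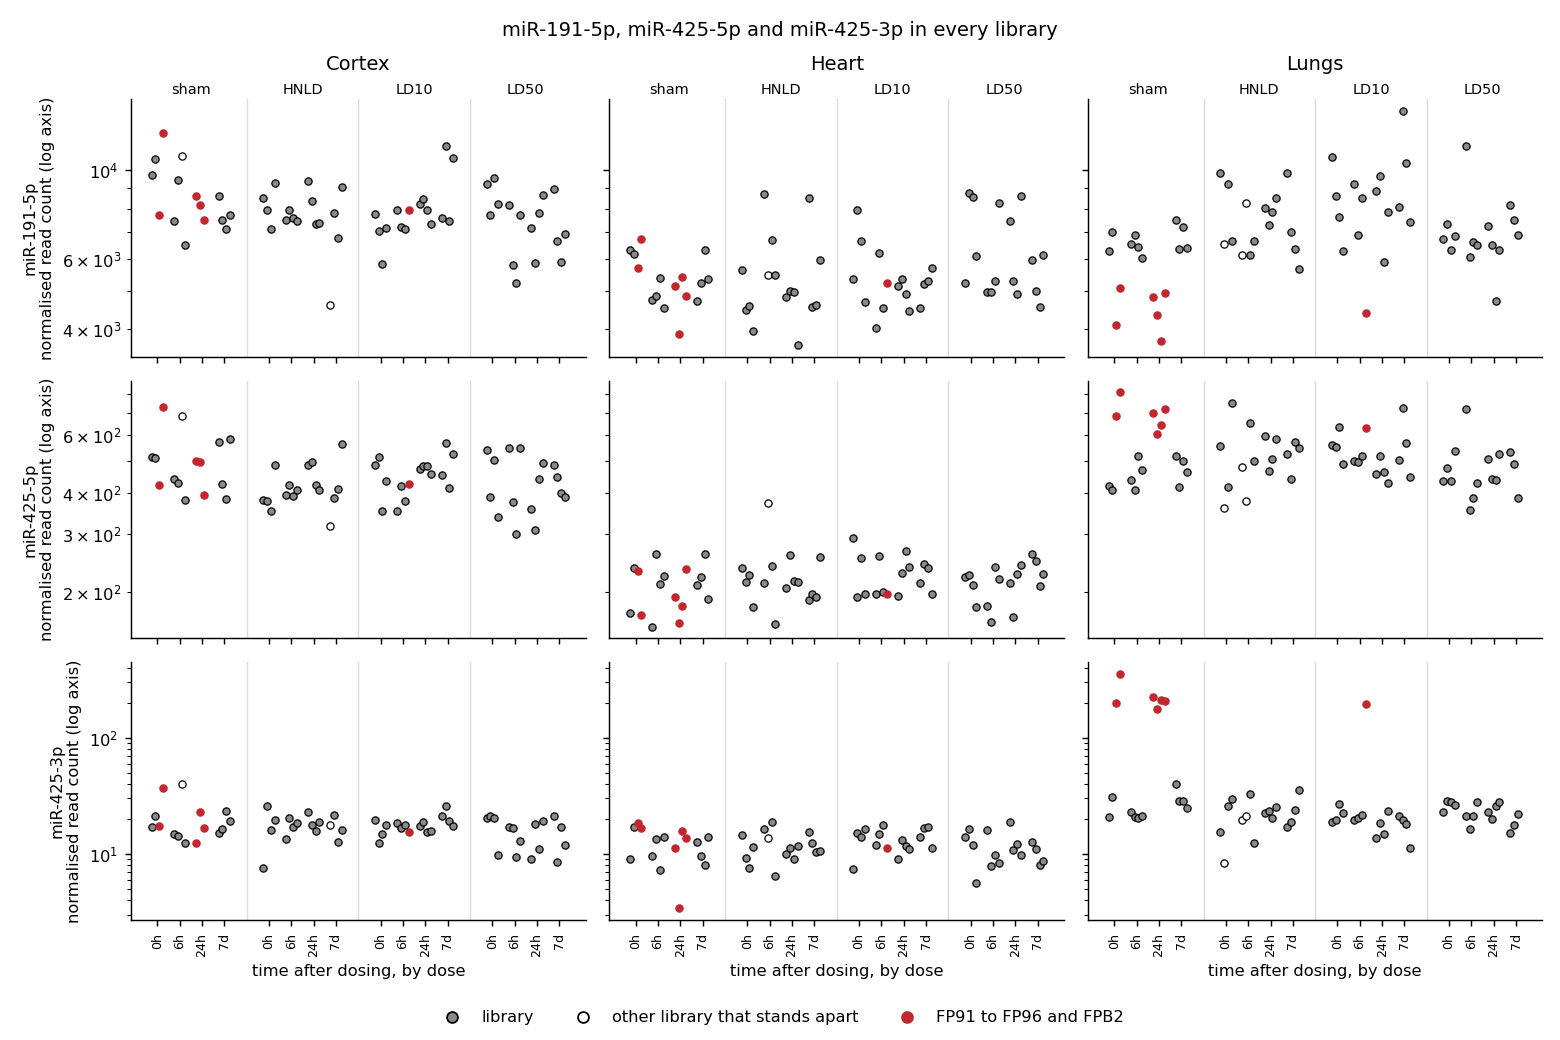
Normalised read count (log axis) of miR-191-5p, miR-425-5p and miR-425-3p in each library of cortex, heart and lungs, by dose and, within a dose, by time after dosing. Each point is 1 mouse, red points are FP91 to FP96 and FPB2, and open points are other libraries that stand apart. In lungs, miR-425-3p was between 176.3 and 353.7 in the red points and at most 39.6 in all others.

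The tissues were normalised separately, so they were compared by ratios within a library, in which the scaling cancels. The first ratio sets the 2 arms of miR-425 against each other, and the second sets the 2 hairpins against each other by their 5p arms. miR-425-5p exceeded miR-425-3p by a median of 25.2-fold in cortex (lowest 14.8, highest 52.1) and 17.7-fold in heart (10.2 to 48.0). In lungs without the last 7 mice the median was 22.6-fold (13.1 to 43.5), and in the last 7 it was 3.24-fold (2.29 to 3.48). The arm ratio of these 7 lungs thus lay below that of every other library of any tissue. The highest heart ratio came from FP92 on 1 read of miR-425-3p, and the highest lung ratio from FP30 on 2 reads. Without the libraries that stood apart, the highest values were 39.6 in heart and 40.3 in lungs. miR-191-5p exceeded miR-425-5p by a median of 17.6-fold in cortex, 23.8-fold in heart, 15.3-fold in lungs without the last 7 mice and 6.82-fold in the last 7.

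**Figure D2:**
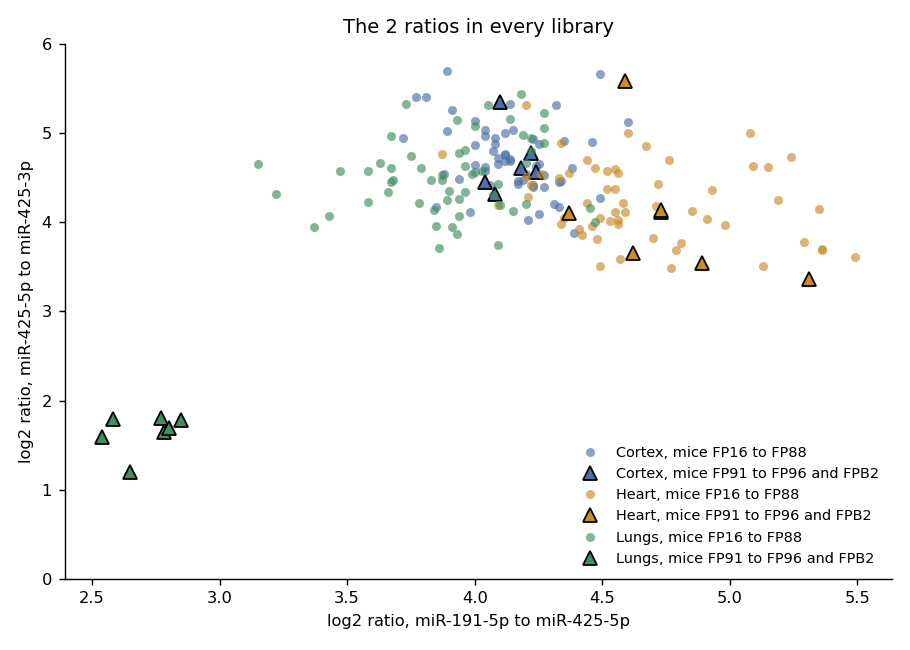
Log2 ratio of miR-191-5p to miR-425-5p (horizontal) against log2 ratio of miR-425-5p to miR-425-3p (vertical) in each library, coloured by tissue, with triangles for FP91 to FP96 and FPB2. The 7 lung triangles lie between 1.20 and 1.80 on the vertical axis, and the other lungs between 3.71 and 5.44.

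The arm ratio was higher in cortex than in heart by 0.50 on the log2 scale (SE 0.076; two-sided permutation test with 100000 draws, p 1e-05, the lowest value it can reach, adjusted over 6 comparisons 1.2e-05). Ratios that include the lungs of the last 7 mice are given with no test. The arm ratio was higher in cortex than in lungs by 0.52 (SE 0.135) over all libraries, and by 0.20 without the last 7 mice (adjusted p 0.00883). For heart minus lungs the difference was 0.02 (SE 0.138) over all libraries and -0.28 (SE 0.08, adjusted p 0.000648) without the last 7 mice. The ratio of miR-191-5p to miR-425-5p was lower in cortex than in heart by 0.52 (SE 0.05, adjusted p 1.2e-05). Over all libraries it was higher in cortex than in lungs by 0.37 (SE 0.063) and higher in heart than in lungs by 0.89 (SE 0.073). Without the last 7 mice, the last 2 differences were 0.24 and 0.75 (adjusted p 1.5e-05). All 3 tissues came from the same mice, so the mouse was also used as a replicate block, with mice of the last 7 included. The arm ratio was then higher in cortex than in heart in 54 of 63 mice (difference 0.50). It was higher in cortex than in lungs in 39 of 62 (0.47) and higher in heart than in lungs in 25 of 63 (0.01). The hairpin ratio was higher in heart than in lungs in 60 of 63 (0.89).

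Depth moved with one of these ratios. In heart, the ratio of miR-191-5p to miR-425-5p fell with the read total (64 libraries, Pearson r -0.56, Spearman rho -0.68, permutation p adjusted over 6 relations 6e-05 for each, r -0.63 without the 2 libraries of most distant depth). The 32 shallower hearts (215163 to 2009247 reads) had a median log2 ratio of 4.84 and the 32 deeper ones of 4.46, and both medians were above the 4.14 of cortex. The part of depth in the tissue difference was not tested. The other 5 relations between depth and a ratio had an adjusted p of at least 0.198. Those in lungs were taken over 56 libraries, without the last 7 mice. The lungs of these 7 had 500457 to 815001 reads, against a median of 3995592.5 in the others. A relation of depth to either ratio over all lungs was not tested.

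In cortex, the mean of each member at 0h was lower in fentanyl mice than in sham mice, by amounts that did not pass the test. At 0h, miR-191-5p was at 9716.9, 10652.3, 7707.9 and 12363.1 in the sham mice FP87, FP88, FP95 and FP96, and at 5815.5 to 9575.6 with a median of 7856 in the 12 fentanyl mice. miR-425-5p was at 517.0, 512.9, 423.9 and 730.7 against 337.7 to 541.2 (median 413), and miR-425-3p at 16.9, 21.0, 17.4 and 36.6 against 7.5 to 25.6 (median 18.7). The groups overlapped for each member, and the highest sham value of each came from FP96, whose cortex library lacks cortex markers. The log2 fold change was -0.34 for miR-191-5p (SE 0.141, limma adjusted p 0.0857), -0.33 for miR-425-5p (SE 0.161, 0.110) and -0.40 for miR-425-3p (SE 0.243, 0.184), where the median over all 482 miRNAs was 0.19. Without the 3 libraries that stood apart, they were -0.23, -0.18 and -0.17 (limma adjusted p 0.985 each). Over all times, they were -0.16 (SE 0.073), -0.19 (SE 0.083) and -0.18 (SE 0.125), with limma adjusted p of 0.111, 0.111 and 0.247, and -0.08, -0.09 and -0.03 without those libraries.

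No member passed the limma test in cortex, and some calls were made by count tests on the recovered reads. Of 12 limma tests of fentanyl against sham at single times, 0 passed (2 at unadjusted p under 0.05). The background of all tested miRNAs called by limma was 0.0% at 0h, 6h and 24h and 2.49% at 7d. edgeR called miR-191-5p at 0h (log2 fold change -0.44, adjusted p 0.0266), where it called 20.1% of all miRNAs. DESeq2 called miR-191-5p (-0.51, adjusted p 0.0205) and miR-425-5p (-0.52, 0.0446) at 0h, where it called 16.4% of all, and both at 6h, where it called 21.9%. At 6h, the highest sham values (10854.4 for miR-191-5p and 687.4 for miR-425-5p) came from FP85, whose cortex library lacks cortex markers. DESeq2 was not run without the libraries that stood apart. Over all times, miR-191-5p and miR-425-5p were called by edgeR (-0.21 and -0.26, adjusted p 0.0433 and 0.034, 22.8% of all called) and by DESeq2 (-0.27 and -0.32, 0.0168 and 0.0119, 20.4% of all called). edgeR without the 3 libraries that stood apart called 0 of the 12 tests at single times.

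Of 45 tests of each dose against sham in cortex, 0 passed by limma (6 unadjusted, background 0.346%), 1 by edgeR (background 8.49%) and 5 by DESeq2 (background 8.17%), with log2 fold changes of miR-191-5p from -0.53 to 0.24 and of miR-425-5p from -0.43 to 0.04. Of 9 limma F tests of dose, time and dose × time, 0 passed (0 unadjusted), against a limma background of 1.04% for dose and 0.0% for time and dose × time. edgeR F tests and DESeq2 likelihood ratio tests of the same 9 called 0 each, and their background is not given. Within mouse number ranges, LD50 against sham (FP59 to FP88) and LD10 against HNLD (FP16 to FP58) gave 0 of 6 by limma (1 unadjusted, limma background 0.0% in both), 0 by edgeR and 0 by DESeq2. Both log2 ratios of members differed between fentanyl and sham by -0.03 to 0.11 at the 4 times (exact permutation tests, adjusted p 0.998 for each).

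In heart, no difference of a member between fentanyl and sham passed the test. miR-191-5p was at 3653.7 to 8776.3 after fentanyl and at 3892.2 to 6732.8 in sham mice. miR-425-5p was at 160.3 to 374.7 after fentanyl and at 157.0 to 261.9 in sham mice, and the highest value came from FP38, whose heart library lacks the usual level of heart markers. miR-425-3p was at 5.6 to 18.7 after fentanyl and at 3.4 to 18.5 in sham mice. The ranges overlapped for each member. With all 4 times together, fentanyl against sham gave log2 fold changes of 0.07 (SE 0.078), 0.09 (SE 0.072) and 0.04 (SE 0.129) for miR-191-5p, miR-425-5p and miR-425-3p (limma adjusted p 0.986 each), and that of miR-425-3p turned negative under several alternatives.

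By limma in heart, 0 of 12 tests at single times passed (0 unadjusted), 0 of 45 of each dose (4 unadjusted), 0 of 9 F tests (0 unadjusted) and 0 of 6 within number ranges (0 unadjusted), and edgeR and DESeq2 called 0 in each. The limma background was 0.479% for each dose against sham and 0.0% for the others. The 2 log2 ratios differed between fentanyl and sham by -0.22 to 0.49 at the 4 times (exact permutation tests, adjusted p 0.998 for each).

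In lungs, miR-425-3p set the last 7 mice apart from all others, while miR-425-5p and miR-191-5p overlapped with the other lungs. miR-425-3p was at 223.7 (FP91), 176.3 (FP92), 213.1 (FP93), 207.2 (FP94), 198.0 (FP95), 353.7 (FP96) and 194.8 (FPB2), on 114 to 174 reads each, against 8.3 to 39.6 in the other 56 lungs. miR-425-5p was at 704.3, 604.1, 643.4, 720.9, 685.1, 811.1 and 630.5 in the same order, against 355.3 to 751.5. miR-191-5p was at 4823.1, 4340.6, 3734.6, 4931.4, 4108.2, 5078.3 and 4399.8, against 4712.8 to 14061.5. The 3p arm of miR-425 was thus above every other lung, its 5p arm was in the upper part of their range, and miR-191-5p was at the lower end of theirs. The difference of medians was 3.22 on the log2 scale for miR-425-3p (9.71-fold, place 8 from the highest of 371), 0.47 for miR-425-5p (1.38-fold, place 84) and -0.67 for miR-191-5p (0.628-fold, place 59 from the lowest), where the median over all 371 was -0.19. Of all 371 miRNAs, 10.2% were above every other lung in all of the last 7, and 1.08% below. In cortex and heart of the same mice, the differences were 0.07 and -0.02 for miR-191-5p, 0.10 and -0.16 for miR-425-5p, and -0.03 and 0.20 for miR-425-3p, and in neither tissue did any miRNA separate these mice from the rest.

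**Figure D3:**
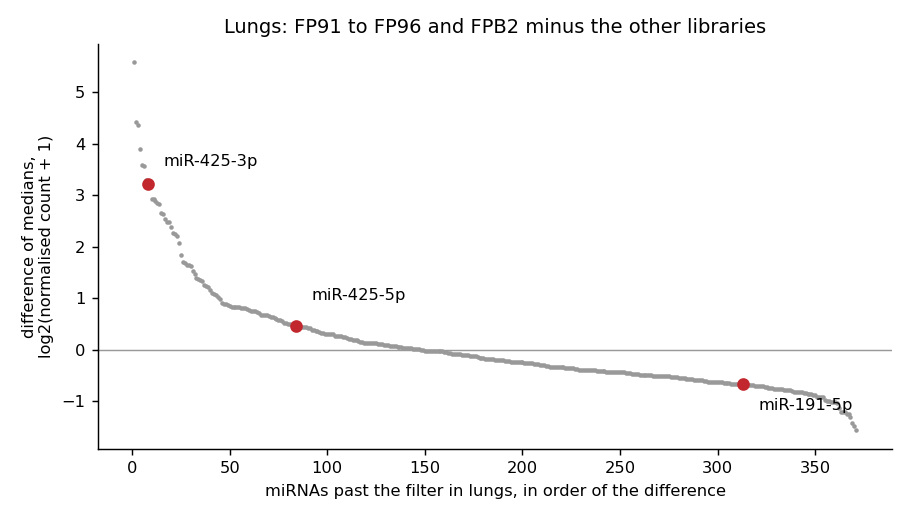
Difference of medians on the log2(normalised count + 1) scale between the lungs of FP91 to FP96 and FPB2 and the other 56 lungs, for the 371 miRNAs past the filter in order of the difference (grey), with the members in red. miR-425-3p lies at 3.22, miR-425-5p at 0.47 and miR-191-5p at -0.67.

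The same difference stood within a dose and time. Among the sham lungs of 0h, miR-425-3p was at 198.0 and 353.7 in FP95 and FP96 and at 20.7 and 30.6 in FP87 and FP88, while miR-425-5p was at 685.1 and 811.1 against 422.2 and 410.0 and miR-191-5p at 4108.2 and 5078.3 against 6292.1 and 7004.4. Among the LD10 lungs of 6h, miR-425-3p was at 194.8 in FPB2 and at 19.6, 20.3 and 21.7 in FP22, FP42 and FP44. In both groups, the lungs of the last 7 mice were above the other lungs of their dose and time in miR-425-3p. This rests on 2 sham lungs and 1 LD10 lung. The remaining sham lungs of the last 7 mice had no lung of their dose and time outside these mice. The members were selected with lung values of miR-425-3p known, so these values are a description and their cause was not tested. The last 7 lungs had 500457 to 815001 reads (median of the others 3995592.5). Of the other lungs under 0.25 of the median depth, FP33 (549601 reads) had miR-425-3p at 19.6, FP78 (549004 reads) at 20.7 and FP30 (196853 reads) at 8.3 on 2 reads, and the part of depth in the difference was not tested. In the last 7, the 5 lung markers took 1.73% to 2.08% of reads (median 1.86%) and in the others 0.0827% to 0.988% (median 0.861%), with no overlap. The single lung markers did not move together. Their log2 differences of medians were 2.655 for miR-200a-3p, 2.483 for miR-200c-3p and 1.032 for miR-200b-3p. Those of miR-141-3p and miR-429-3p were -0.819 and -0.391. The 3 red cell markers took 2.03% to 3.2% of reads (2.79% to 14.0% in the others), the 4 leukocyte markers 0.998% to 2.01% (0.394% to 1.78%) and the 2 endothelial markers 6.61% to 7.55% (4.23% to 8.26%), and the part of these 4 lists in the difference was not tested. The leukocyte markers were split too, with miR-150-5p at 1.692 and miR-142a-3p at 0.803, but miR-142a-5p at -0.837 and miR-223-3p at -0.204.

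The arm shift of miR-425 was one of several. Among the 99 hairpins with both arms past the filter in lungs, the log2 ratio of 5p to 3p of miR-425 moved by -2.75 in the last 7 mice, place 6 by size, where the median size was 0.46. It moved by over 1 in 29 hairpins, and in 12 (12.1%) the ratio of the last 7 lay outside the range of every other lung. The same ratio of miR-425 moved by -0.11 in cortex and -0.09 in heart.

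Over all lung libraries, miR-191-5p and miR-425-3p differed most between fentanyl and sham at 0h and 24h, the times with sham lungs from the last 7 mice. At 24h, when all 4 sham lungs did, miR-425-3p was at 13.8 to 28.0 (median 22.8) in the 12 fentanyl lungs and at 176.3 to 223.7 in sham, a log2 fold change of -3.21 (SE 0.404). miR-425-5p was at 428.4 to 597.6 against 604.1 to 720.9 (-0.44, SE 0.158), and miR-191-5p at 4712.8 to 9646.8 against 3734.6 to 4931.4 (0.71, SE 0.167). The groups did not overlap for the 2 arms of miR-425 and overlapped for miR-191-5p, and of all 371 miRNAs 30.5% did not overlap at 24h. At 0h, when 2 of 4 sham lungs were from the last 7 mice, the log2 fold changes were 0.47 (SE 0.167) for miR-191-5p, -0.13 (SE 0.158) for miR-425-5p and -1.87 (SE 0.404) for miR-425-3p, and without the last 7 mice they were 0.20 (SE 0.204), 0.29 (SE 0.194) and -0.20 (SE 0.279). At 6h, when FPB2 was among the fentanyl lungs, they were 0.12, 0.11 and 0.23 with it and 0.20, 0.08 and -0.04 without the last 7 mice.

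At 7d, no lung of the last 7 mice entered. There miR-425-3p was at 39.6, 28.5, 28.5 and 25.0 in sham and at 11.2 to 35.4 (median 19.0) in the 11 fentanyl lungs, so the groups overlapped, with a log2 fold change of -0.61 (SE 0.41). miR-191-5p and miR-425-5p had log2 fold changes of 0.22 (SE 0.169) and 0.11 (SE 0.16) at 7d. The arm ratio was higher after fentanyl by 1.78 at 0h, 2.84 at 24h and 0.76 at 7d and lower by 0.12 at 6h on the log2 scale, and without the last 7 mice the difference at 0h was 0.50. A comparison at 24h without the last 7 mice could not be fitted, as no sham lung was left.

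**Figure D4:**
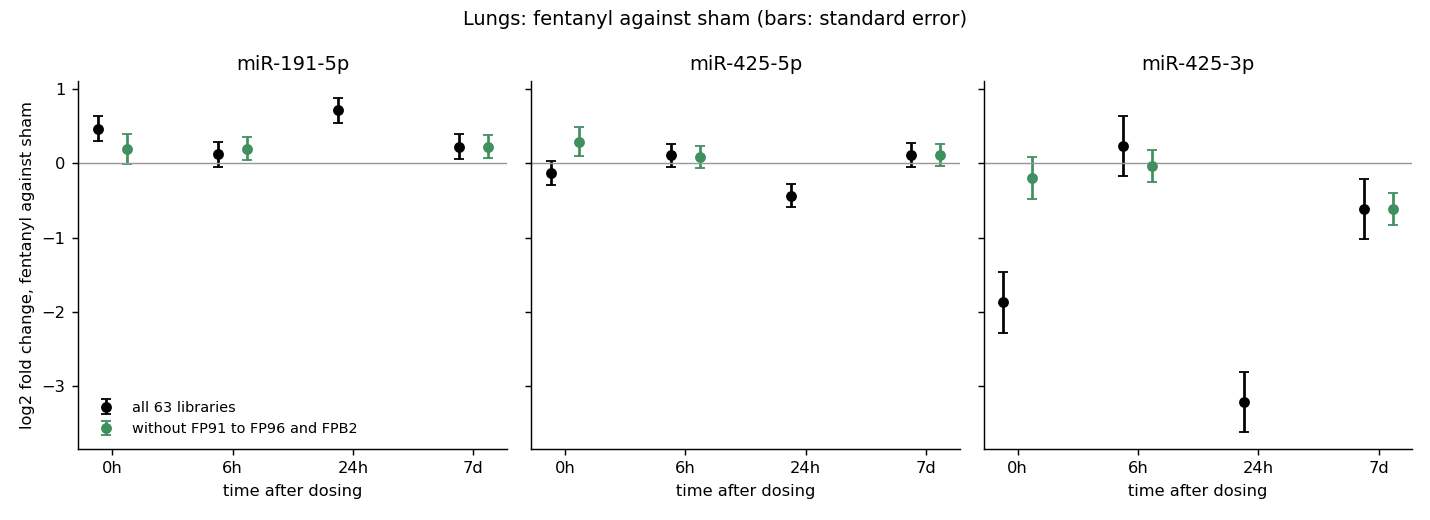
Log2 fold change of fentanyl against sham in lungs (bars, standard error) at 0h, 6h, 24h and 7d, over all 63 libraries (black) and without FP91 to FP96 and FPB2 (green). For miR-425-3p the black points lie at -1.87 at 0h and -3.21 at 24h, and the green point at 0h lies at -0.20, with no green point at 24h.

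Over all lung libraries, limma called 4 of 12 member tests at single times (background 13.7% at 0h, 0.0% at 6h, 46.1% at 24h and 0.0% at 7d), 16 of 45 of each dose (background 13.9%) and 3 of 9 F tests (background 34.5% for dose, 1.35% for time and 9.43% for dose × time). Nothing is read from these counts, since the members were chosen with such results known. Without the last 7 mice, no sham lung of 24h was left, so all tests covered only 0h, 6h and 7d. The counts were then 0 of 9 at single times (background 0.0% at 0h, 6h and 7d), 1 of 36 of each dose (background 1.82%) and 0 of 9 F tests (background 14.6% for dose, 0.27% for time and 0.0% for dose × time). The 1 call was miR-191-5p in LD10 mice over 0h, 6h and 7d together, with a log2 fold change of 0.38 (SE 0.12), a contrast in which 9.97% of all miRNAs were called. It sets LD10 mice of FP16 to FP58 against sham mice of FP59 to FP88, so dose and number range cannot be told apart in it.

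Within FP59 to FP88, where sham and LD50 lungs can be compared with no lung of the last 7 mice, no member passed. The 10 sham lungs had miR-191-5p at 6036.2 to 7513.0, miR-425-5p at 409.4 to 519.4 and miR-425-3p at 20.3 to 39.6. LD50 (9 lungs of the times both doses had) against sham gave log2 fold changes of 0.03 (SE 0.058, limma adjusted p 0.814) for miR-191-5p, -0.06 (SE 0.079, 0.737) for miR-425-5p and -0.17 (SE 0.121, 0.511) for miR-425-3p. The direction for miR-191-5p turned under other scalings. The arm ratio differed by 0.06 (exact permutation test, two-sided, p 0.661, adjusted 0.998) and the ratio of miR-191-5p to miR-425-5p by 0.09 (p 0.223, adjusted 0.998). LD10 against HNLD within FP16 to FP58 gave 0.19 for miR-191-5p (SE 0.106, limma adjusted p 0.659) and -0.13 for miR-425-3p (SE 0.156, 0.783). Of these 6 tests in lungs, 0 passed by limma (0 unadjusted), edgeR and DESeq2, where the limma background was 2.43% for LD50 and 0.0% for LD10.

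Within a tissue, the 2 hairpins moved together from mouse to mouse in cortex. After subtraction of each group's mean, miR-191-5p and miR-425-5p correlated with r 0.83 and rho 0.82 over 63 cortex libraries (permutation p 1e-05, the smallest possible, adjusted over 12 relations 0.00012), with r 0.81 without the 2 most distant libraries and 0.79 without the 3 that stood apart. Among 481 other miRNAs of cortex, miR-425-5p was the one most like miR-191-5p (r 0.79 over 60 libraries), followed by miR-203-3p (0.73) and miR-126a-5p (0.66), and miR-425-5p was most like miR-126a-5p (0.83). In heart the correlation of the pair was r 0.17 (rho 0.22, adjusted permutation p 0.275 and 0.159), and in lungs it was 0.16 within FP16 to FP58 (rho 0.20, adjusted p of r 0.458) and 0.42 within FP59 to FP88 (rho 0.37, adjusted p of r 0.0789). Over the 62 hearts that did not stand apart, the pair gave r 0.24. There miR-191-5p was most like miR-126a-5p (0.84) and miR-425-5p most like miR-16-5p (0.80). Over the 53 lungs that did not stand apart, with number ranges together, the pair gave r 0.43. In these lungs miR-191-5p was most like miR-186-5p (0.71) and miR-425-5p most like miR-155-5p (0.72). The difference of the correlations between tissues was not tested, and libraries share their scaling factor across miRNAs.

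The 2 arms of miR-425 were compared in the same way, and the differences between correlations were not tested. In cortex r was 0.39 (rho 0.27, adjusted permutation p 0.0112 and 0.102), and 0.21 (adjusted p 0.172) without the libraries that stood apart. miR-191-5p and miR-425-3p gave r 0.32 (rho 0.30, adjusted p 0.0313 and 0.102) and likewise 0.21 without them. In lungs of FP16 to FP58 the arms gave r 0.52 (rho 0.40, adjusted p 0.0117 and 0.102), which fell to 0.26 without the 2 most distant libraries. Without the libraries that stood apart, the arms there gave r 0.41 (rho 0.46, adjusted p 0.158 and 0.0873), and 0.47 without the 2 most distant of the libraries that were left. In heart r was 0.26 (adjusted p 0.0789). Over the libraries that did not stand apart, miR-425-3p was most like miR-379-5p in cortex (0.73), miR-872-3p in heart (0.40) and miR-223-3p in lungs (0.51).

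**Figure D5:**
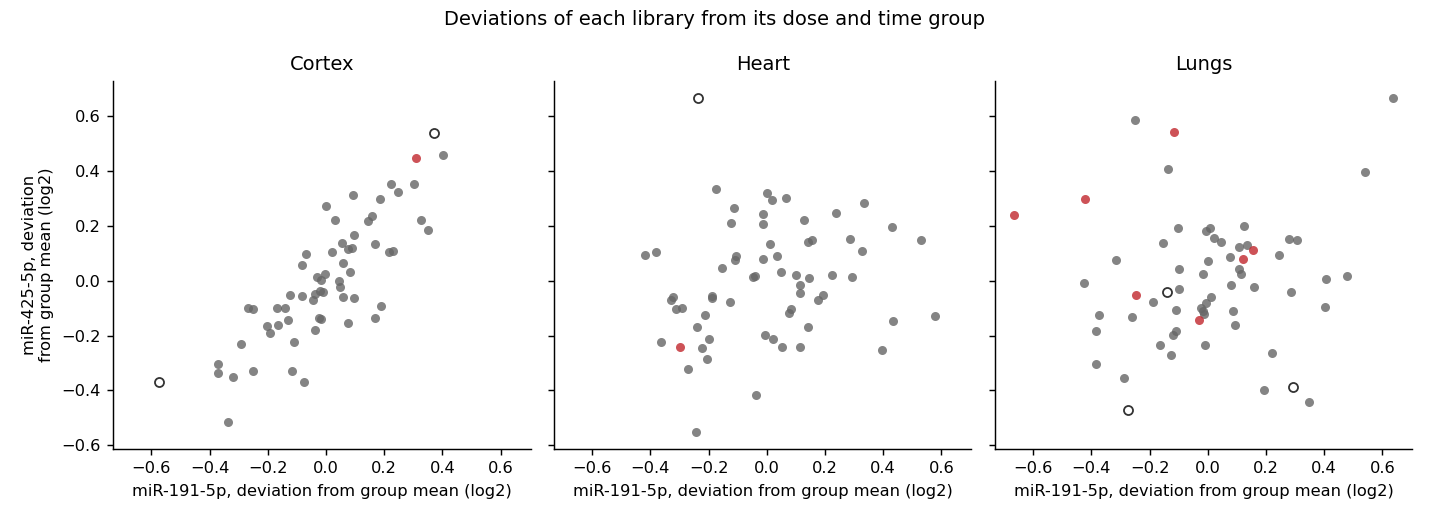
Deviation of miR-425-5p (vertical) against that of miR-191-5p (horizontal) from the mean of their dose and time group, log2 scale, 1 point per library; open points and red points are libraries that stand apart, red where they came from FP91 to FP96 and FPB2. The points lie along a rising line in cortex (r 0.83) and spread in heart (r 0.17), and the lung panel takes group means over all mice, unlike the correlations within number ranges.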

How the data were processed

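The authors trimmed 50 bp single-end small RNA reads, mapped them to mature mouse miRNAs of miRBase (mm9; Bowtie 1.0.0 and FastQC per the submitters' processing notes) and scaled them by TMM in edgeR. The deposited values are a normalised signal, with 100% of low values whole multiples of 1 read within 0.1 read, so reads and totals were recovered. Each tissue was normalised separately, 0 columns were left out, and adapter ligation favours some sequences, so ratios of miRNAs are not ratios of molecules. The closest libraries of a group differed beyond sampling noise (chi-square per degree of freedom at least 10.5).

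The main test was limma 3.58.1 with a mean trend on log2(value + 1), 16 group means per tissue, the filter above and Benjamini-Hochberg adjustment at 0.05. It was checked on simulated data whose planted changes were larger than those of the members in cortex and heart. Its power for changes as small as theirs was not checked. Fold changes on the log2(value + 1) scale understate changes of low miRNAs such as miR-425-3p. Count tests on recovered reads (edgeR 4.0.16, DESeq2 1.42.0) were alternatives, beside pseudocounts of 0.25 and 4, no filter, other scalings, a term for number range, and leaving out each library, low-depth libraries (under 0.25 of the median) or those standing apart (average-linkage tree of 1 minus r cut at 0.05). edgeR without the latter was added after seeing the data. For fentanyl against sham at 0h in cortex, edgeR called 97 of 482 miRNAs, DESeq2 75 of 456 and limma 0. Ratios were tested by exact permutation or by 100000 permutations (5000 when leaving out a library). Members and lists were chosen with earlier results of these data known, as were the named miRNAs: the members, miRNAs sharing a seed, and the 5 per member and tissue with the highest r, of which the leading ones are given. Tissues were paired by mouse, as the labels give the same mouse number in all 3.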

Additional observations from a re-analysis of the deposited data

Results flagged for a closer look

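Among 138 sets of 4 values (1 member in 1 group of 4 mice of a tissue, so that the members share their mice), 9 held 1 mouse whose distance from the nearest other exceeded 0.829 of the set's range, where chance gives about 1 in 20. For miR-425-3p, these were cortex LD50 0h FP74 (9.7 on 25 reads, others 20.4 to 21.1), cortex sham 6h FP85 (39.6, others 12.3 to 14.9) and lungs LD10 6h FPB2 (194.8, others 19.6 to 21.7). For miR-425-5p, they were heart LD10 6h FP42 (258.4, others 197.2 to 200.7), heart HNLD 7d FP53 (255.8, others 189.5 to 197.5) and lungs LD10 6h FPB2 (630.5, others 498.6 to 518.8). For miR-191-5p, they were heart LD50 6h FP73 (8283.3, others 4950.3 to 5293.6), heart HNLD 24h FP58 (3653.7, others 4814.3 to 4993.2) and lungs LD50 6h FP29 (11514.1, others 6064.3 to 6605.1). FP85 in cortex and FPB2 in lungs are libraries that stand apart, which covers 3 of the 9.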

How the results depend on the processing

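In cortex, member tests called at single times (0 of 12 by limma) were 1 by edgeR and 4 by DESeq2, and 0 to 2 when 1 library was left out (2 without FP95, 1 without FP85). Tests of each dose (0 of 45) were 1 and 5, and 0 to 1. By edgeR without the 3 libraries that stand apart, chosen after seeing the data, both were 0. In lungs, 4 of 12, 3 of 9 and 16 of 45 were called over all libraries. Without low-depth libraries, without those standing apart and without FP91 to FP96 and FPB2, 0 of 9, 0 of 9 and 1 of 36 were called. With number range as a term, 0 of 12, 0 of 9 and 0 of 45 were called. In every tissue, no HNLD mouse and only 1 LD10 mouse shared a number range with sham mice. That setting could therefore hardly call either dose against sham, and its counts decide nothing. By edgeR without those standing apart, 0 of 9, 0 of 9 and 2 of 36 were called. In the settings with 36 tests, a time whose sham lungs had all been left out was not tested. Leaving out 1 library gave 3 to 5, 3 to 4 and 12 to 18. For these lung counts, the share of all miRNAs called is given above only over all libraries and without FP91 to FP96 and FPB2. Nothing is read from the counts of the other settings.

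Directions turned for miR-425-3p in cortex over all times (0.006 by edgeR without libraries standing apart), for miR-425-3p in heart over all times (-0.037 without low-depth libraries, -0.070 without those standing apart, -0.283 with number range as a term, -0.025 by edgeR, -0.055 by edgeR without those standing apart, -0.041 by DESeq2, -0.068 to 0.093 leaving out 1 library), and for miR-191-5p in lungs within FP59 to FP88 (-0.016 by RLE scaling, -0.058 by library total, -0.020 by edgeR, -0.013 by DESeq2). The arm ratio of heart minus lungs was -0.017 with 0.5 reads added, -0.299 without low-depth libraries, -0.320 without those standing apart, -0.284 without FP91 to FP96 and FPB2, 0.962 in sham mice only, and -0.031 to 0.037 leaving out 1 library. That of lungs within FP59 to FP88 was -0.009 to 0.115. Of 12 correlations of members, 4 passed by Pearson r over all libraries and 1 without those standing apart. By Spearman rho, only that of miR-191-5p with miR-425-5p in cortex passed, in both settings. The cause was not tested in any of these. The replicate block by mouse turned no direction of a ratio between tissues. Cortex had no low-depth library, and 24h against sham without FP91 to FP96 and FPB2 could not be fitted in lungs, heart or cortex. In lungs, 24h against sham could also not be fitted without low-depth libraries or without those standing apart. Depth limits miR-425-3p most, with a median of 26 reads in heart.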

Other observations

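miR-191-3p, the other arm of the miR-191 hairpin, was measured beside the members. Its normalised read count had a lowest value of 11.7, a median of 29.3 and a highest value of 46.7 in cortex, 0, 11.7 and 20.0 in heart, and 0, 6.5 and 16.4 in lungs. The values of 0 were in 1 heart (FP68) and 1 lung (FP30), where 3 reads, the limit that a count of 0 allows, would be 11.9 and 12.4. In the lungs of FP91 to FP96 and FPB2 its median was above that of the other lungs by 0.57 on the log2 scale, with overlapping values, against 3.22 for miR-425-3p.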
